A study of Mus musculus with 4 samples.

Results

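The genes of collagens, laminins and integrins were followed in single-cell RNA sequencing of the mouse forebrain at E12.5. They were taken by symbol, as every row named Col, Lam or Itg in the pattern of a collagen chain, a laminin chain or an integrin subunit, which gave 80 of 43346 features: 44 collagen, 11 laminin and 25 integrin genes. The pattern also took Itgbl1, which is not an integrin subunit. All libraries were from wild-type C57BL/6 embryos, with tissue pooled over embryos of both sexes. The cortex (CTX) gave 1 library, and so did each of the ganglionic eminences of the ventral forebrain: the medial (MGE), the caudal (CGE) and the lateral one (LGE). The libraries held 31451467 to 49794765 UMIs (unique molecular identifiers, the molecules counted). A region therefore had no replicates, no test was made between regions, and intervals cover counting error only.

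Collagens are triple-helical proteins of the extracellular matrix, and type IV collagen with laminin, a heterotrimer of an α, a β and a γ chain, makes the sheet of the basement membrane. Integrins are α and β heterodimers in the cell membrane that bind these matrix proteins. In the embryonic forebrain the end feet of radial glia, the neural stem cells of the ventricular zone, rest on the basement membrane under the pia, and blood vessels are wrapped in a basement membrane of their own.

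Cells were sorted into classes by a few genes on a scale of ln(1 + UMIs per 10000). Radial glia had Nes above 1.5 and Dcx not above it. Neurons passed the same limit in Dcx, and their Mki67, Ccnd2, Ccnd1, Hes5 and Nes lay below 0.5. Non-neural cells held UMIs of at least 2 of Cldn5, Pecam1, Col3a1 and Pdgfrb, and neural cells held none of these 4. Counts were summed over the cells of a class in a library and are given as counts per 1000000 UMIs of the sum (CPM). The classes held 854, 529, 493 and 140 radial glia and 209, 556, 810 and 1185 neurons in CTX, LGE, MGE and CGE, and only 21, 10, 20 and 11 non-neural cells, 62 of 16095 kept cells in all. The non-neural sums were shallow, from 85859 UMIs in CGE to 189853 in MGE, so that 1 UMI was worth more than 5 CPM in each of them. The classes were checked against markers. Slc1a3, a glutamate transporter of radial glia and astrocytes, was at 67 to 207 CPM in radial glia and at 0.418 to 10.4 in neurons. It was higher still in the non-neural cells of CTX, as given below, so it sets radial glia apart from neurons only. Stmn2 was at 908 to 1820 CPM in neurons and at 16.2 to 73.5 in radial glia. The pericyte gene Vtn was at 1340 to 2410 CPM in non-neural cells and at 0 to 0.273 in radial glia. Cells with exactly 1 of the 4 genes, 57, 94, 185 and 97 in CTX, LGE, MGE and CGE, were in no class. They numbered 433 in all, against 62 non-neural cells, so a class by any 1 marker was mostly these cells. Another 10787 of the 16095 kept cells, 67.0%, met no class rule and held 68.3% of the kept UMIs. Pairs of libraries shared 4 to 15 barcodes, of which 2 to 8 were among kept cells.

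Of the 80 genes, 50 reached 10 CPM in at least 1 of the 12 class sums (29 collagen, 7 laminin and 14 integrin genes), against 29.3% of all features. In 42 of them such a level rested on 4 or more UMIs, against 26.3% of all features. Itga3, Itga7 and Col6a6 stood just inside at 10.7 CPM, each from 2 UMIs in CTX non-neural cells, and Col4a4 stood just outside at 8.08 CPM in LGE neurons. Col10a1 and Itgb2l had no UMI in any kept cell.

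**Figure D1:**
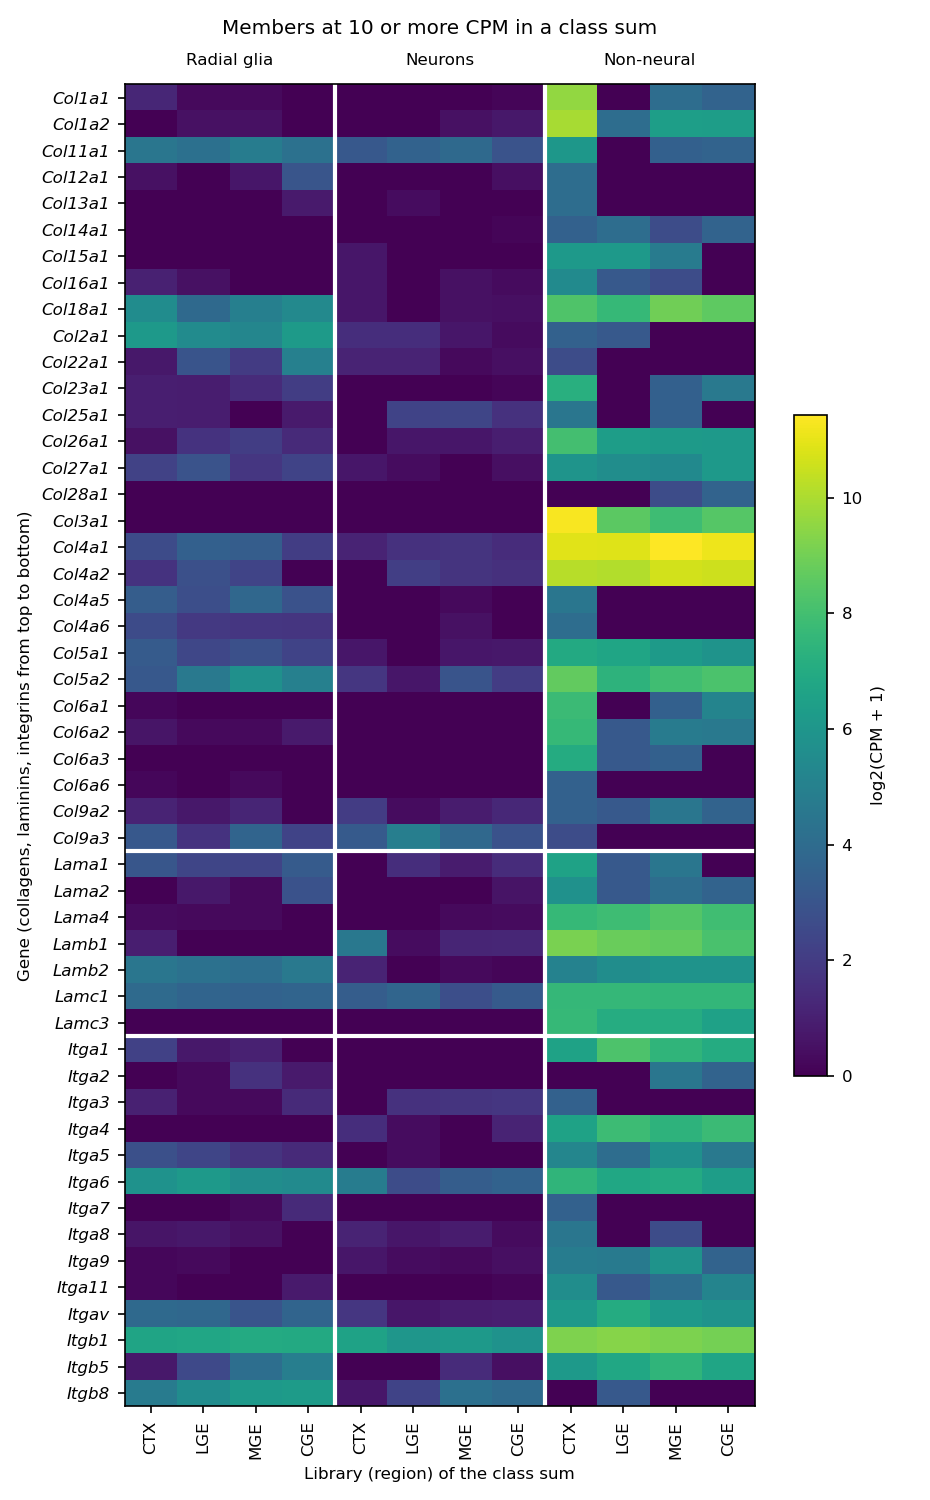
Level of the 50 genes that reached 10 CPM in a class sum, as log2(CPM + 1) (colour), with genes in rows and the 12 sums of 3 classes and 4 libraries in columns. The brightest rows in non-neural cells are Col4a1, Col4a2 and, in CTX, Col3a1, while Col2a1 and Itgb8 are brighter in radial glia than in non-neural cells.

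Type IV collagen genes lie in head-to-head pairs, and the 3 pairs differed in where they were detected. Col4a1 and Col4a2, which encode the chains of the collagen IV of most basement membranes, lie at chr8:11198423-11312826 and chr8:11312805-11449287 on opposite strands of GRCm38, so that their 5′ ends overlap. Col4a5 at chrX:141475385-141689234 and Col4a6 at chrX:141165403-141474076 have 1309 bases between their starts, and Col4a3 and Col4a4 on chromosome 1 have 72. The promoters of 4 of these genes are shown because the genes of a pair lie back to back, with overlapping windows for Col4a1 and Col4a2, while the pairs differed in the classes that held their UMIs. They are RefSeq windows of 300 bases on GRCm38.p6, read 5′ to 3′ on the strand of the gene, at chr8:11312777-11313076 (minus strand), chr8:11312555-11312854 (plus strand), chrX:141475169-141475468 (plus strand) and chrX:141474027-141474326 (minus strand). Capitals mark the GC box GGGCGG and the CCAAT box CCAAT on either strand, which were found in 35.7% and 37.4% of 32851 promoters of this length.
Col4a1: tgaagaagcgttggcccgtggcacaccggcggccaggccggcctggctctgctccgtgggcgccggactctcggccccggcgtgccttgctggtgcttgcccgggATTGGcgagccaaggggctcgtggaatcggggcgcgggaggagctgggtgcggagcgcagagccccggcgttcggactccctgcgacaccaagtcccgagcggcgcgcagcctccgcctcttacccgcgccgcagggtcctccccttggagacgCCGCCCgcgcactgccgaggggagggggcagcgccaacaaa
Col4a2: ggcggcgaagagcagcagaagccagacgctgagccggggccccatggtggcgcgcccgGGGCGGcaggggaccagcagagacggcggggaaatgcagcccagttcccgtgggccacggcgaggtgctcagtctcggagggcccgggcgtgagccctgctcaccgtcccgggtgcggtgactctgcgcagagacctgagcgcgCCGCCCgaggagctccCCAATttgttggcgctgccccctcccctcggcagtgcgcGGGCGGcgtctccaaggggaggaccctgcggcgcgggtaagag
Col4a5: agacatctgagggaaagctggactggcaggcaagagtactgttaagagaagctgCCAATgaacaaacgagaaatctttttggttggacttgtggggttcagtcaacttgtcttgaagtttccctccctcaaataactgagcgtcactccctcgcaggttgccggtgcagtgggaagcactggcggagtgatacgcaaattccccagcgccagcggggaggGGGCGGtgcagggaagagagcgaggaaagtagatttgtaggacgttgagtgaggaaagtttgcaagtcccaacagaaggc
Col4a6: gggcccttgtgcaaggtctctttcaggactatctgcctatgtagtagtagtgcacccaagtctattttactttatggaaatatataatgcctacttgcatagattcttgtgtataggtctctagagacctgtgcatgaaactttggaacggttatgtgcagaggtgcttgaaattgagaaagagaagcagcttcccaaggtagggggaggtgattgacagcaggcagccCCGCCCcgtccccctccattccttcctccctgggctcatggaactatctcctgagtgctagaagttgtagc
The Col4a2 window held 3 GC boxes and the Col4a1 window 1, and both held 1 CCAAT box. The GC box of the Col4a1 window lies in the overlap and is the same site as the last of the 3 in the Col4a2 window. The Col4a5 window held 1 of each, and the Col4a6 window held 1 GC box and no CCAAT box. The Col4a4 window held neither, and Col4a3 had no entry. These are matches of letters in a window and not shown to be bound.

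Col4a1 was at 1950, 1880, 2760 and 2240 CPM in the non-neural cells of CTX, LGE, MGE and CGE. It was at 5.19, 10.2, 9.48 and 3.18 CPM in radial glia and at 1.22, 2.10, 2.30 and 1.71 CPM in neurons. Every non-neural sum lay far above every neural one, and the log2 fold change over radial glia was 8.13 ± 0.226 (SE, edgeR quasi-likelihood test, adjusted p = 1.73e-11). Col4a2 was at 1160, 1100, 1600 and 1510 CPM in the same non-neural sums and at 0 to 6.0 CPM in the neural ones, with a log2 fold change of 8.51 over radial glia (edgeR adjusted p = 1.68e-09). The 62 non-neural cells, 0.385% of kept cells, held 64.9% of the UMIs of Col4a1 and 68.4% of those of Col4a2. In the cells with exactly 1 of the 4 genes, Col4a1 was at 65.6 CPM. Col4a1 was also higher in radial glia than in neurons, by 1.83 ± 0.361 on the log2 scale (edgeR adjusted p = 0.00483), with no overlap between the classes. For scale, Vtn, at 1600 CPM over the non-neural sums against 2240 for Col4a1, read 0.112 CPM over the radial glia, where Col4a1 read 7.46. Vtn had 0 UMIs in the non-neural cells with Cldn5 and Pecam1, where Col4a1 was at 2110 CPM, so it gives no scale for those cells. The source of the Col4a1 UMIs in radial glia was not tested.

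Col4a5 and Col4a6, chains of other collagen IV trimers, were low in every class. They and the genes of the Col4a3 pair were chosen for mention after their values were seen. Col4a5 was at 9.28, 5.78, 13.3 and 6.35 CPM in radial glia, from 165 UMIs, and 1 UMI was found in all neurons, a ratio of 161 with a counting interval of 28.4 to 6390. In non-neural cells 4 UMIs were found, all in CTX. Radial glia lay above neurons in every library, by 6.61 ± 0.601 on the log2 scale (edgeR adjusted p = 0.000140). Col4a6 was at 5.19, 2.67, 2.53 and 2.38 CPM in radial glia and at 0.418 CPM or less in neurons, a log2 fold change of 4.22 (edgeR adjusted p = 0.00508). For both genes the difference between non-neural cells and radial glia was not detectable at this depth, with log2 fold changes of -0.65 and 0.33 and edgeR adjusted p of 0.636 and 0.858. Col4a3 had 3 UMIs in all kept cells, and Col4a4 had 181, of which radial glia held 9 and neurons 37. The LGE neurons held 27 of these, at 8.08 CPM against 0 to 1.04 CPM in the other neuron sums.

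**Figure D2:**
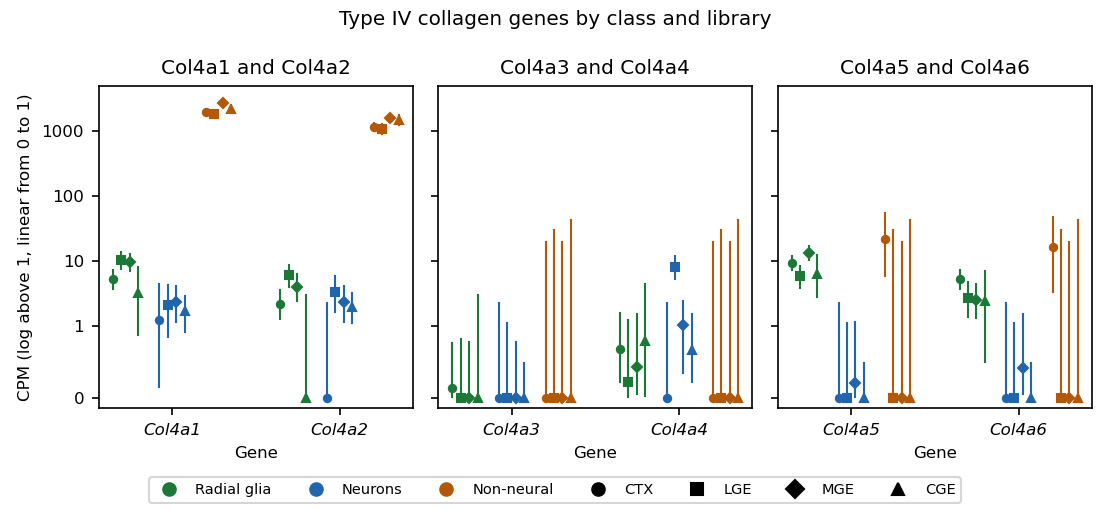
Level of the 6 type IV collagen genes in CPM (log axis above 1, linear from 0 to 1), by class (colour) and library (symbol), with exact Poisson 95% intervals. Col4a1 and Col4a2 stand above 1000 CPM in all non-neural sums, and Col4a5 and Col4a6 stand above their neuron sums in the radial glia of all 4 libraries.

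Radial glia and neurons were compared over 8 sums with the library as a block. Of the 80 genes, 45 passed the filter on low counts, and 25 were higher in radial glia and 5 higher in neurons (edgeR, adjusted p below 0.05 and log2 fold change past 0.25). All 5 passed the filter through neurons alone, with 0 to 7 UMIs in radial glia. Many of the 25 passed it through radial glia alone, such as Itga2, Col12a1 and Lama2 with 12, 15 and 12 UMIs there. For such genes the filter itself favours the direction called. Over all 14838 genes tested, 26.6% were higher in radial glia and 25.1% higher in neurons. The median log2 fold change of the tested genes of these families was 1.83, against 0.01 over all genes. In CPM, 18 of them had all radial glia sums above all neuron sums, where 24.9% of all genes did, and 2 had the reverse, where 21.1% did. Radial glia held more UMIs per cell than neurons, with medians of 8407 to 9848 against 5892 to 7168, and with each cell thinned to 3000 UMIs the counts were 18 and 1.

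Among the collagens, Col2a1, the main collagen of cartilage, was at 68.8, 44.4, 36.9 and 74.7 CPM in the radial glia of CTX, LGE, MGE and CGE. In neurons it was at 1.84, 1.80, 0.627 and 0.263 CPM. The classes did not overlap, and the log2 fold change was 5.88 ± 0.440 (edgeR adjusted p = 5.98e-05). Its level in non-neural cells, 3 UMIs in all, was 0.0937 times that of radial glia (counting interval 0.0193 to 0.275, log2 fold change -3.54, edgeR adjusted p = 0.00139). Col18a1, whose C-terminal fragment is endostatin, was at 45.6, 14.2, 29.3 and 41.3 CPM in radial glia and at 0 to 0.612 CPM in neurons (log2 fold change 6.43 ± 0.326, edgeR adjusted p = 1.25e-05). Unlike Col2a1, it was higher still in non-neural cells, at 306, 201, 495 and 384 CPM. Col5a2, a chain of the fibril-forming type V collagen, was at 7.78, 23.8, 52.4 and 30.2 CPM in radial glia and at 2.45, 0.599, 6.90 and 3.15 CPM in neurons (log2 fold change 3.18, edgeR adjusted p = 0.000662). Its radial glia sums were all above its neuron sums, although those of CTX and of the MGE neurons lay close together. Col11a1, a fibrillar chain that pairs with type II collagen in cartilage, differed less, at 17.8 to 27 CPM in radial glia and 6.57 to 14.0 CPM in neurons (log2 fold change 1.06, edgeR adjusted p = 0.00483). Its level in non-neural cells was 1.17 times that of radial glia (counting interval 0.651 to 1.96). The highest of its sums was the CTX non-neural one, at 64.3 CPM.

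Lamb2, the laminin β2 chain, was the laminin gene that met the rule for named genes in this comparison. It was at 21.7, 18.0, 16.4 and 23.8 CPM in radial glia, while all neurons together held 4 UMIs. The log2 fold change was 6.17 ± 0.538 (edgeR adjusted p = 0.000114). Its non-neural sums, at 32.2 to 58.2 CPM, were above its radial glia sums by 1.18 on the log2 scale (edgeR adjusted p = 0.0488), a call that was lost without LGE, MGE or CGE, at 1.16, 0.87 and 1.14. Lamb1, the β1 chain, had the opposite direction: 7 UMIs in radial glia, all in CTX, and neurons at 22.7 CPM in CTX and 0.299 to 1.31 CPM in the eminences. The call of Lamb1, at -4.61 on the log2 scale, was lost without the library block, at -3.93. It was also lost with single-marker cells kept in the neural classes, at -2.04. Lamc1, the γ1 chain found in most laminins, did not pass the test, with radial glia at 11 to 14.6 CPM and neurons at 5.64 to 12.3 CPM (log2 fold change 0.48, edgeR adjusted p = 0.144).

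Among the integrins, Itgb8, which pairs with αv and activates latent TGF-β, was at 26.2, 46.7, 69.5 and 75.4 CPM in radial glia. In neurons it was at 0.612, 3.89, 17.6 and 14.3 CPM. The classes did not overlap (log2 fold change 2.70 ± 0.353, edgeR adjusted p = 0.000731), and both were lowest in CTX. Only 1 UMI was found in the non-neural cells, 0.0367 times the radial glia level (counting interval 0.000929 to 0.205). This was a log2 fold change of -5.13 against radial glia (edgeR adjusted p = 0.000914), which fell to -0.54 and lost its call when cells with any 1 of the 4 genes were counted as non-neural. Its partner Itgav was at 13.8, 12.9, 6.74 and 11.9 CPM in radial glia and at 0.599 to 2.45 CPM in neurons (log2 fold change 3.31, edgeR adjusted p = 0.000394). Itga6, the laminin receptor subunit α6, was at 42.9 to 72.4 CPM in radial glia and at 5.39 to 26.9 CPM in neurons (log2 fold change 2.19, edgeR adjusted p = 0.00263). Itgb1, the β subunit shared by most matrix receptors, had a difference of only 0.69 (edgeR adjusted p = 0.0110), with 102 to 127 CPM in radial glia and 56.5 to 94.3 CPM in neurons, and the call was lost without the CGE library, where the value was 0.57. Itgb5 was at 0.682, 4.67, 16.6 and 28.6 CPM in radial glia and at 0 to 1.67 CPM in neurons, and here the classes overlapped, since the CTX radial glia lay below the MGE neurons (log2 fold change 4.62, edgeR adjusted p = 0.000912).

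**Figure D3:**
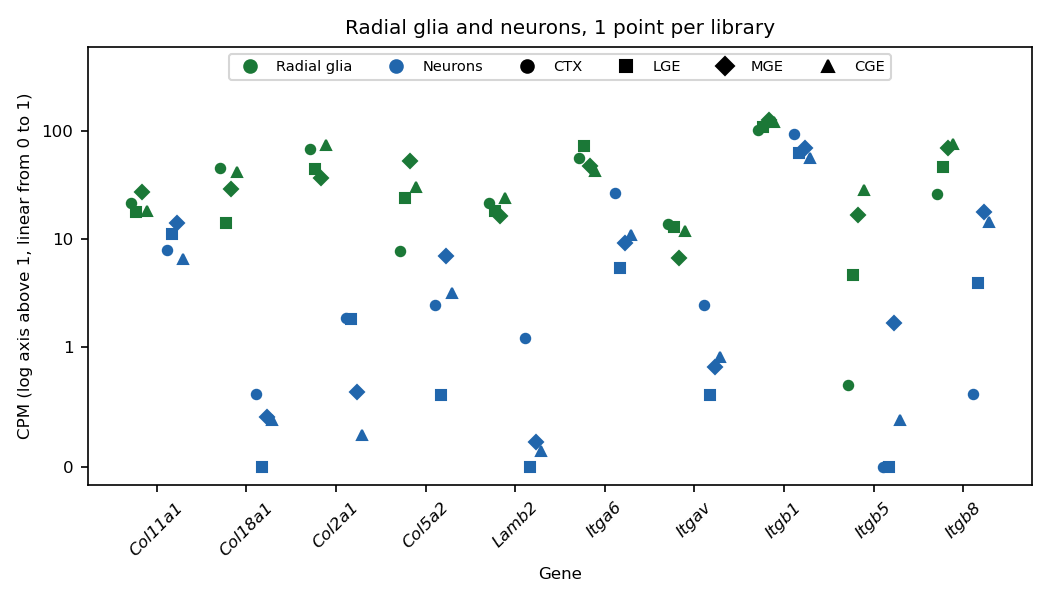
Level in CPM (log axis above 1, linear from 0 to 1) of the 10 named genes that differed between radial glia and neurons, with 1 point for each library. Every gene but Itgb5 has all radial glia points above all neuron points.

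The 5 genes called higher in neurons were Col9a1, Col20a1, Col6a5, Itga4 and Lamb1, named after their values were seen. All stayed below 10 CPM in every neuron sum but that of Lamb1 in CTX. Col9a1 had 42 of its 51 neuron UMIs in CGE. Without the CTX, LGE, MGE or CGE library the number of such genes was 7, 2, 1 and 1, so that it rested on single libraries. Col9a3, a chain of the same type IX collagen, was not called, but its LGE neurons stood at 28.7 CPM against 2.22 in LGE radial glia, while in CTX both classes were near 8 CPM.

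The radial glia of the 4 regions differed in several of these genes by more than counting error, with 1 library a region. Itgb5 was 41.9-fold higher in CGE than in CTX (95% interval 16.4 to 137), and Col5a2 was 6.74-fold higher in MGE than in CTX (5.04 to 9.16). Col18a1 was 3.21-fold higher in CTX than in LGE (2.45 to 4.26), and Itgb8 was 2.88-fold higher in CGE than in CTX (2.23 to 3.70). Col22a1, named after its values were seen, was at 0.682, 6.89, 2.95 and 31.0 CPM in the radial glia of CTX, LGE, MGE and CGE, and its call over neurons was lost without CGE, from 3.73 to 2.11 on the log2 scale (edgeR). Itgb1 was the most even of the rule's 10 genes, with 1.25-fold between its highest and lowest library (1.12 to 1.39). Regions and libraries cannot be told apart here.

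Non-neural cells were set against radial glia and against neurons over 12 sums. Of 54 genes that passed the filter, with Col3a1 left out because it helped to define these cells, 34 were higher and 2 lower than in radial glia, where 12.3% and 14.5% of all genes were. Against neurons 37 were higher, where 17.4% of all genes were. None was called lower than in neurons by edgeR or by DESeq2, where edgeR called 17.7% of all genes, and 1, Col9a3, was lower at an unadjusted p under 0.05 in both. The non-neural sums were too shallow for this to show that none is lower. Itgb8, at 0.143 times its neuron level (counting interval 0.00360 to 0.805), was not called. Both contrasts were called up for 33 genes (16 collagen, 7 laminin and 10 integrin genes), against 9.57% of all genes. Of the 54, 9 passed the filter through the non-neural class alone, and all 9 are among the 33 (Col1a2, Col6a1, Col6a2, Col6a3, Col15a1, Lama4, Lamc3, Itga9 and Itga11). The other 45 held 24 of the 33, where 7.91% of all genes with such counts in a neural class were called in both. Median log2 fold changes were 3.37 over radial glia and 5.85 over neurons, or 3.76 and 5.64 with genes absent from a class set at the limit of 3 UMIs, against -0.38 and -0.32 over all genes. Among the 50 genes at 10 CPM or more, another 8 were called higher in radial glia than in neurons. For these 8, non-neural cells were not called higher than radial glia. They were Col2a1, Col11a1, Col12a1, Col22a1, Col4a5, Col4a6, Itgb8 and Itga2. Of these, Col12a1, Col4a5, Col4a6 and Itga2 were called higher in non-neural cells than in neurons. Col12a1 and Itga2 reached 10 CPM in non-neural sums only, from 3 and 5 UMIs over the libraries. Their non-neural levels were 6.08 times (counting interval 1.13 to 21.5) and 12.7 times (3.49 to 38.6) those of radial glia. The missing call therefore does not place these genes in radial glia. Of the 50, none met the same rule for neurons, and 3 (Col9a3, Col25a1 and Itga3) belonged to no single class. The remaining 5 of the 50 (Col6a6, Col13a1, Col14a1, Col28a1 and Itga7) had too few UMIs to be tested. Below 10 CPM, Lama5 met the rule for radial glia (3.22 over neurons on the log2 scale, edgeR adjusted p = 0.0116). Col9a1, Col20a1 and Col6a5, also below 10 CPM, met the rule for neurons.

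All 7 laminin genes at 10 or more CPM were among the 33. Lamc1 was at 193, 192, 190 and 186 CPM in the non-neural cells of CTX, LGE, MGE and CGE, a spread smaller than its counting error, and 3.84 ± 0.244 above radial glia on the log2 scale (edgeR adjusted p = 4.70e-08). Lama4, the α4 chain of vessel walls, was at 204, 233, 327 and 245 CPM, while radial glia and neurons together held 7 UMIs. Lamb1 was at 558, 457, 411 and 280 CPM. Lamc3, the γ3 chain, had 88 UMIs in non-neural cells and none in radial glia or neurons, at least 891-fold and 868-fold higher when the neural classes are set at 3 UMIs over the 4 libraries. The non-neural levels of these 4 genes lay above all neural sums in each library.

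Among integrins, Itga1, a collagen receptor subunit, was at 96.5, 297, 179 and 128 CPM in non-neural cells, and no UMI was found in neurons. It shares exons with an overlapping gene model on the same strand, so its counts are uncertain. Itga4, a receptor subunit for fibronectin and Vcam1, was at 96.5, 225, 169 and 221 CPM, and no UMI was found in radial glia. Itgb1 was at 524 to 650 CPM, 2.25 ± 0.181 above radial glia on the log2 scale (edgeR adjusted p = 5.79e-07), although the non-neural cells held only 3.01% of its UMIs. The call of Itga6 over radial glia (1.05 on the log2 scale, edgeR adjusted p = 0.0378) was lost without CTX, MGE or CGE, at 0.81, 0.84 and 1.02. It was also lost without the library block, at 1.11, with the wider doublet score, at 0.74, and when any 1 marker was enough for a non-neural cell, at 0.07, or 0.13 without Col3a1 among the markers.

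Among the collagens other than type IV, Col18a1 was 3.34 above radial glia on the log2 scale in non-neural cells (edgeR adjusted p = 1.59e-07) and Col5a2 was 3.39 above (edgeR adjusted p = 0.000105), although the latter lost its call at 1.30 and 1.47 when any 1 marker was enough for a non-neural cell. Col5a1, the partner chain of Col5a2, was at 123, 104, 73.7 and 58.2 CPM in the non-neural cells of CTX, LGE, MGE and CGE. Col27a1, a fibrillar chain, was at 59, 48.1, 42.1 and 69.9 CPM. For both, the interval of the ratio of CTX to the eminences spanned 1 (0.862 to 2.72 and 0.511 to 2.58). Col26a1 was at 257 CPM in CTX and 69.9 to 80.2 CPM in the eminences, and Col23a1, a transmembrane collagen, was at 145 CPM in CTX and 0 to 23.3 CPM elsewhere. Col3a1, which helped to choose the cells, was at 2580, 369, 237 and 338 CPM.

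The non-neural class was of more than 1 kind. In it, 18 cells held Cldn5 and Pecam1, 43 held Col3a1 and Pdgfrb, and 1 was mixed. Further endothelial genes followed the first kind (Cdh5 at 747 against 10.4 CPM, Kdr at 939 against 15.6 CPM) and pericyte genes the second (Rgs5 at 2740 against 31.1 CPM, Vtn at 2430 against 0 CPM). Without Col3a1, 32 genes had at least 10 UMIs over both kinds. By their 95% intervals, with no test over libraries, 22 were higher in the Col3a1 and Pdgfrb cells, where 13.6% of all genes with such counts were, and 5 in the Cldn5 and Pecam1 cells, where 11% were (844 of 7674).

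The 5 genes on the endothelial side were Col4a2, Col15a1, Col18a1, Lama4 and Itga5. Col18a1 was at 835 CPM in the Cldn5 and Pecam1 cells against 124 CPM, a ratio of 6.71 (4.84 to 9.47). Col15a1, the other multiplexin collagen, had 26 UMIs against 1. Lama4 was at 384 against 197 CPM, and Col4a2 at 1620 against 1230 CPM. Col4a1 did not separate the kinds, at 2110 against 2350 CPM (ratio 0.898, 0.797 to 1.01). On the other side, the interstitial collagens Col1a1 and Col1a2 had 145 and 210 UMIs in the Col3a1 and Pdgfrb cells and none in the others, as did Col6a1, Col6a2 and Col6a3 of type VI collagen with 46, 45 and 27. Most of these UMIs were from the non-neural cells of CTX, with 141, 185, 41, 37 and 24 in that order. CTX gave 17 of the Col3a1 and Pdgfrb cells and only 3 of the Cldn5 and Pecam1 cells, so kind and library are mixed for these 5 genes. Lamc3 and Itgb5 were also found in the Col3a1 and Pdgfrb cells alone, with 88 and 70 UMIs, where 3 UMIs would be 15.6 CPM in the 192756 UMIs of the Cldn5 and Pecam1 cells.

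**Figure D4:**
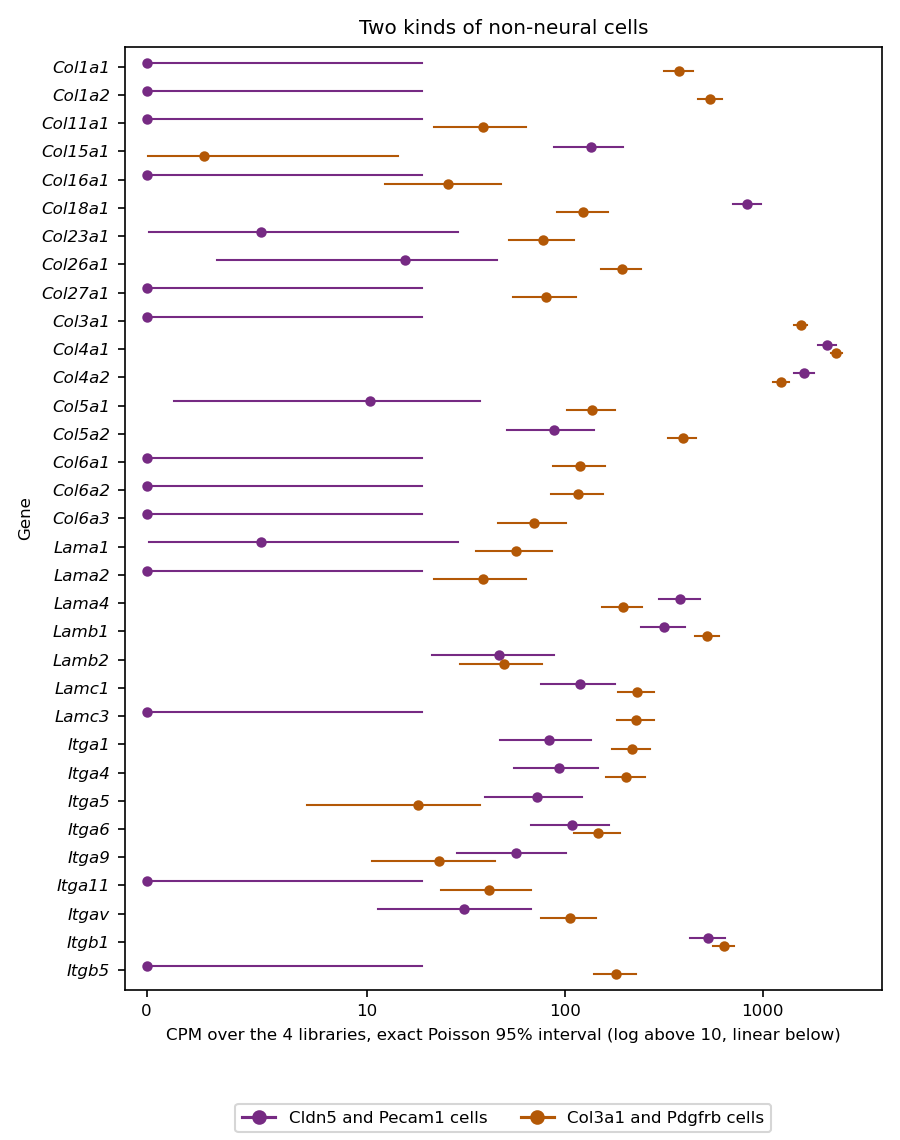
Level in CPM with exact Poisson 95% intervals, over the 4 libraries, of 33 genes in the 18 Cldn5 and Pecam1 cells and the 43 Col3a1 and Pdgfrb cells (log axis above 10, linear below). Col15a1 and Col18a1 lie to the right in the first kind, and Col1a1, Col1a2, Lamc3 and Itgb5 are at 0 there.

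The CTX non-neural cells stood apart from those of the eminences. Of 31 genes called to non-neural cells with at least 10 UMIs there, the ratio of CTX to the 3 eminences together was above 1 for 13, below 1 for 5 and not separable from 1 for 13. Among all 1367 genes called in this way, 9.44% were above 1 and 23.9% below. Col1a1 was at 756 CPM in CTX against 0, 15.8 and 11.6 CPM in LGE, MGE and CGE, a ratio of 75.7 (28.9 to 282). Its 141 UMIs in CTX came from 13 of 21 cells. Col1a2 was at 992 against 16, 84.3 and 81.5 CPM, and Col6a1 at 220 against 0, 10.5 and 34.9 CPM. Col4a1, by contrast, was 0.823 times its level in the eminences (0.727 to 0.929), Lamc1 was 1.02 times (0.664 to 1.53) and Itga1 was 0.471 times (0.266 to 0.792).

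Some markers of mesenchyme moved with these collagens. Lum and Dcn, small proteoglycans of fibrous tissue, had 197 and 191 UMIs in the CTX non-neural cells and none in those of the eminences. Foxc1 and Foxd1, of the same marker list, did not, at 188 against 140 CPM and 182 against 210 CPM. The intervals of their ratios of CTX to the eminences spanned 1 (0.854 to 2.08 and 0.566 to 1.31). Slc1a3, used above to check the radial glia, was at 413 CPM in the CTX non-neural cells and at 0 in the other 3. The pericyte gene Rgs5 was lower in CTX, at 724 against 2330, 2450 and 2000 CPM, and so was Cldn5, at 343 against 658, 2120 and 1680 CPM. Cells with Cldn5 and Pecam1 numbered 3, 3, 8 and 4 among the 21, 10, 20 and 11 non-neural cells of CTX, LGE, MGE and CGE. The part of this makeup in the collagen values was not tested. Without CTX, 22 of the 33 genes kept both calls, and Lama1, Lama2 and Col23a1 were among those that lost the one over radial glia, at 1.09, 2.97 and 2.20 on the log2 scale. The call of Lama1 was also lost without LGE or MGE, at 2.60 and 2.30.

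**Figure D5:**
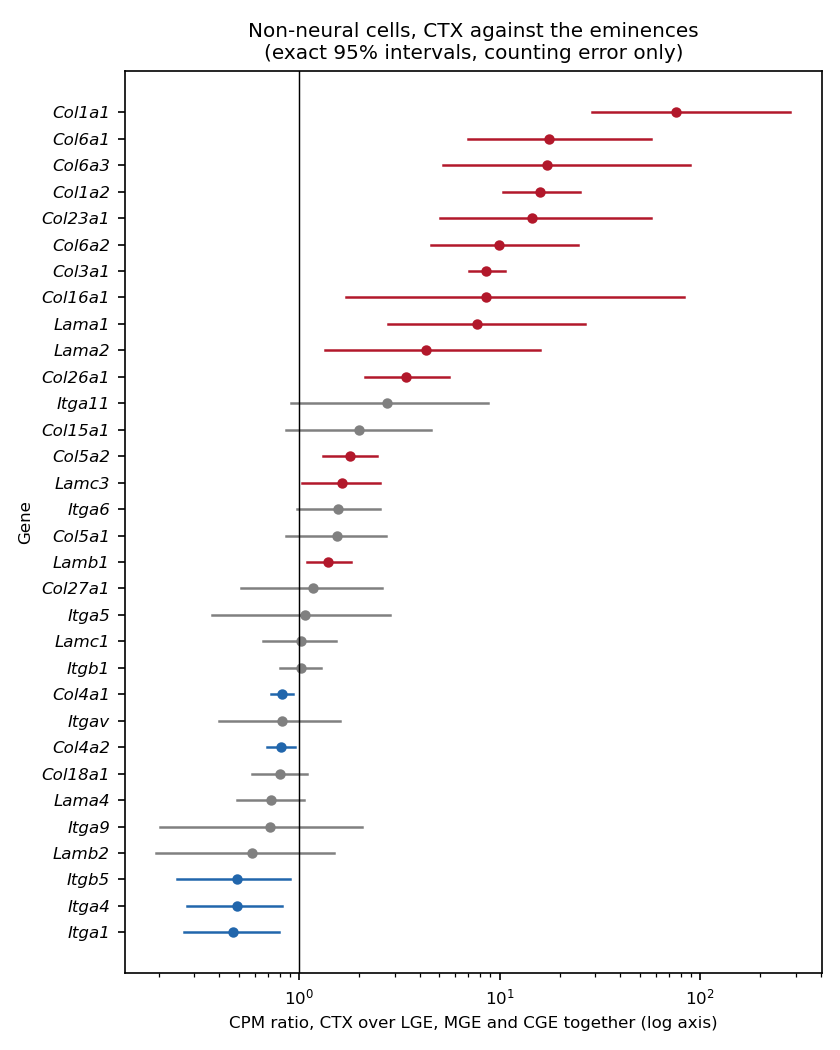
Ratio of CPM in the non-neural cells of CTX to that of LGE, MGE and CGE together, on a log axis, with exact 95% intervals of counting error for 32 genes (red above 1, blue below 1, grey spanning 1). Col1a1, Col6a1, Col6a3 and Col1a2 lie above 15-fold and Itga1, Itga4 and Itgb5 lie lowest.

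Integrins of leukocytes were sought in the 24, 4, 6 and 3 cells of CTX, LGE, MGE and CGE that held at least 3 microglia genes, which entered none of the 3 classes. Itgam, the αM subunit of complement receptor 3, was at 39.4, 116, 442 and 266 CPM in them and at 0.898 CPM or less in every radial glia and neuron sum. Its β subunit partner Itgb2 had 16 of its 17 UMIs there, Itgal 25 of 30 and Itgax 9 of 9. Itgam shares exons with a gene model on the same strand, so its counts are uncertain. Itgb5 was also high in these cells, at 318 to 709 CPM.

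Partner genes outside the families were read from 3 lists. Of 13 tested matrix partners, 7 were higher in radial glia than in neurons and 2 lower, where 26.6% and 25.1% of all genes were. The higher ones included Tnc (7.24 on the log2 scale, edgeR adjusted p = 0.000484) and Sparc (6.88, edgeR adjusted p = 2.73e-06), and the lower ones were Reln (-3.22, edgeR adjusted p = 0.000395) and Ncan (-1.2, edgeR adjusted p = 0.000226). Tnc was uneven between libraries, at 0.273, 5.33, 0 and 29.4 CPM in the radial glia of CTX, LGE, MGE and CGE, and neurons held 1 UMI. Tnc and Sparc encode secreted matrix proteins, and Reln is the signal of Cajal-Retzius neurons. Of 11 tested genes of collagen folding and crosslinking, 7 were higher in radial glia and none lower, with Loxl3 at 3.71 and Plod1 at 3.54. Of 13 integrin adaptors, 5 were higher, a share not far from that of all genes, with Parva at 3.04 and Lims1 at 1.85, and 2 lower, Src at -0.68 and Tln1 at -0.45. In non-neural cells against radial glia the counts were 7 higher and 4 lower of 14, 10 and 0 of 12, and 9 and 0 of 13, where 12.3% and 14.5% of all genes were.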

How the data were processed

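Droplet 3′ libraries were made by the authors from dissociated E12.5 cortex, LGE, MGE and CGE. The deposited values were raw UMI counts per gene and barcode, from Cell Ranger with default settings and mm10 (GRCm38). The submitters' processing notes name version 3.0.0 and the file headers 3.0.2, and the annotation release is not given in the sources used here. The labels describe a sort for live cells while the published methods say that no sort was used for wild type, which was not settled. Whether counting used strand was not given, so overlapping genes are uncertain. Positions came from GENCODE M21 by gene ID and promoters from RefSeq, which had 59 of the 80 genes.

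Barcodes were kept with over 1500 and under 4500 genes, under 5% mitochondrial and under 1% Hbb UMIs. The median kept cell held 6957 to 8265 UMIs. Doublets were removed with scikit-learn 1.9.0 at 0.8% per 1000 barcodes from simulated cell pairs (2000 genes, 30 components, 15 neighbours). The 15 neighbours were chosen after 60 had been seen to remove most non-neural cells.

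Class sums were tested with edgeR 4.0.16 (quasi-likelihood, TMM, library as block, Benjamini-Hochberg) over genes with 10 or more UMIs over the libraries in 1 class. The sums of a library are from the same cells' suspension, which is the pairing. DESeq2 1.42.0 was an alternative, with other gates, filters, depths and left-out libraries. On simulated sums, 98.0% of genes changed 2-fold between radial glia and neurons were found, and 37.0% between non-neural cells and radial glia (100 genes each among 15389 and 15738 genes). The changed genes were drawn from the better expressed ones only. The simulated spread was also set below that of the data, a coefficient of variation of 0.214 over the 8 sums and 0.225 over the 12. These shares therefore do not hold for the many low genes of these families. The p-values measure the spread between 4 libraries of different regions. Intervals are exact 95% ones (Poisson for CPM, Clopper-Pearson for shares and ratios).

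The genes, lists and rules were chosen with earlier results of these data known. Values are given for (1) genes called between radial glia and neurons that reached 10 CPM in either class in at least 2 libraries, (2) genes called to non-neural cells with at least 10 UMIs there, and Col3a1, (3) Itgam, Itgb2, Itgal and Itgax in myeloid cells, and (4) the partner genes with the largest changes, up to 2 a direction in a list. Other genes are named where stated.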

Additional observations from a re-analysis of the deposited data

How the results depend on the processing

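The number of genes higher in radial glia than in neurons was 25 and ranged from 18 to 24 with 1 library left out. It was 15 with the filterByExpr filter, which tested only 18 of the genes. The number higher in neurons was 5 and ranged from 1 to 7 with 1 library left out. It was 2 with DESeq2, 1 with the Nes and Dcx limit at 2.0, 1 with cells thinned to 3000 UMIs, 3 with all high-Dcx cells as neurons, 3 with no filter on low counts and 3 with single-marker cells kept in the neural classes. With filterByExpr it was 0 (edgeR, also 0 at an unadjusted p under 0.05). The number higher in non-neural cells than in both other classes was 33, fell to 22 with cells thinned to 3000 UMIs, which had fewer UMIs, and ranged from 23 to 30 with 1 library left out. It was 26 with filterByExpr and 24 when any 1 of the 4 genes made a cell non-neural, with 21 of the 33 among them. At 85859 to 189853 UMIs, the non-neural sums limit what could be called. Without the library block, that is without the pairing of sums from the same library, the counts were 21, 4 and 32. Counting 1 of the 4 genes as enough for a non-neural cell took Lamb2 over radial glia from 1.18 to -0.00 on the log2 scale, and to -0.01 without Col3a1 in that rule. The wider class was mostly the 433 single-marker cells, against 62 cells by the main rule. Lamb2 was at 15.8 CPM in the single-marker cells, 47.7 in the main non-neural cells and 19.5 in radial glia. The part of these cells in the lost calls was not tested. Over the named genes and alternatives, fold changes between radial glia and neurons kept direction and call in 322 cases and lost the call in 5, and those of non-neural cells over radial glia in 626 and 45, with 2 reversed. The cause was not tested where none is given. The number of genes at 10 CPM or more, 50, ranged from 42 to 50 with 1 library left out. Doublets scored over 60 neighbours, an alternative added after the data were seen, gave 25, 5 and 31.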
